A study of Mus musculus with 52 samples.

Results

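The genes described here are 34 immediate early and activity-induced genes, chosen by symbol from a fixed list of names, and all 34 were found in each of the 4 expression tables of the series, which together hold 56783 genes. They fall into 8 AP-1 and Maf transcription factors (Fos, Fosb, Fosl1, Fosl2, Jun, Junb, Jund and Maff), 4 EGR zinc-finger factors (Egr1 to Egr4), 3 NR4A orphan nuclear receptors (Nr4a1, Nr4a2 and Nr4a3), 4 other factors (Npas4, Klf2, Klf4 and Klf10), 5 phosphatases and signal inhibitors (Dusp1, Dusp4, Dusp5, Dusp6 and Rgs2), 6 regulators of growth and stress (Ier2, Ier3, Ier5, Btg2, Gadd45b and Gadd45g) and 4 synaptic and secreted effectors (Arc, Homer1, Nptx2 and Bdnf). Immediate early genes are transcribed within minutes of a stimulus without new protein synthesis, because their promoters are served by factors that already sit in the nucleus, such as CREB, which binds cAMP response elements, and serum response factor, which binds CArG boxes. In neurons, calcium entry during firing switches them on, so that Fos, Arc, Egr1 and Npas4 are used as marks of recent activity, and a seizure induces them strongly and briefly. Astrocytes carry much of the same program and use it after growth factors, stress and other stimuli, with the dual-specificity phosphatases switching the MAP kinases off again.

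The series holds 27 libraries of cultured astrocytes and 25 of brain, all from C57BL/6 mice. Wild-type astrocytes were untreated, given neuronal conditional medium, given the same kind of medium from APOE KO neurons, or treated with oleic acid or palmitic acid, and APOE KO astrocytes were untreated or given neuronal conditional medium, oleic acid or palmitic acid, with 3 libraries in each of these 9 groups. The brain libraries are 3 untreated and 3 KA from a first cohort of mice with KA-induced TLE, 3 untreated and 3 CNO from a CNO-induced epileptic model, and 13 from a second cohort of KA-induced TLE, where 4 had KA, 3 APOE knock out with KA, 3 were labelled A2aR knock down with KA and 3 were untreated. APOE, gene symbol Apoe, encodes the lipid carrier apolipoprotein E, and A2aR is the adenosine receptor encoded by Adora2a. Neither the region of brain, the doses, the ages of the mice nor the time from treatment to collection is given in these sources, and the time matters for genes whose transcripts last for minutes to hours. How the A2aR knock down was made, and which cells respond to CNO, are likewise not given here. KA also stands in the titles of the libraries with neuronal medium, without saying whether the neurons that made the medium had received it, and the word mix stands unexplained in those of the third untreated and the third palmitic acid knockout library. Nothing says that the libraries of a group came from separate mice or cultures, so the p-values here reflect only how far libraries of a group lie apart, which may be technical.

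Levels are in TPM, which is scaled for gene length and library depth, the value of each library is given in the order of the replicate numbers, and fold changes are log2 values ± SE. A gene was called when its p, adjusted by the Benjamini-Hochberg method over all genes of the table, was under 0.05. The test was edgeR's quasi-likelihood test on counts in the second KA cohort and limma on log2(TPM + 1) elsewhere. The log2(TPM + 1) scale understates the change of low genes, and in the second KA cohort fold changes come from counts and levels from the deposited TPM, so that the 2 need not match (as for Klf4 in the knockout brains). Libraries of the second cohort held 68760648 to 76643829 counts, while no depth is known for the TPM tables. In the first cohort untreated 3 stood apart: mitochondrial transcripts were 9.01% of its TPM against 15.9% and 16.1% in the other untreated libraries, and Homer1 was at 73.2, 74.4 and 20.6 TPM and Dusp4 at 21.9, 23.5 and 3.45 TPM in untreated 1, 2 and 3. In the second cohort Xist was at 122, 144.9 and 145.1 TPM and Ddx3y, a gene of the Y chromosome, at 0.40, 0.13 and 0.13 TPM in the untreated libraries, against at most 0.31 TPM and at least 20.3 TPM in the KA-treated groups, so sex and KA treatment cannot be told apart there. As a check of the labels, the knockout brains had Apoe at 58.6, 29.7 and 31.2 TPM, against 926, 829.7, 1383 and 1467 TPM in KA. Adora2a was at 1.75, 2.15 and 1.89 TPM in the libraries labelled A2aR knock down and 1.95, 2.90, 1.32 and 2.26 TPM in KA, so these values show no reduction, and that group is called by its label throughout. In brain fewer cells of a type and less RNA per cell cannot be told apart. Reads of Fosl1, Jun, Junb, Jund, Dusp1, Dusp5 and Bdnf overlap exons of a gene on the opposite strand (Ccdc85b, Junos, Prdx2, Gm11175, Ergic1, AC137853.2 and Gm45346), and since the strand setting of the counting is not given here, reads of such pairs cannot be told apart. Homer1 values sum its long forms and the short activity-induced form.

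In the first KA cohort 20 members lay lower in KA than in untreated brain and 12 higher, and none was called. Of 32 members tested (Fosl1 and Egr2 were too low), 0 were called by limma, where 0.183% of all 15331 genes were. At an unadjusted p under 0.05, 8 members were lower, where 1.87% of all genes were, and 4 were higher, where 11.6% were. The median log2 fold change of the members was -0.27, against 0.25 over all genes tested.

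Junb, an AP-1 factor, was at 78.2, 68.4 and 83.3 TPM in untreated 1 to 3 and 45.5, 44.1 and 46.2 TPM in KA 1 to 3 (log2 fold change -0.74 ± 0.14, adjusted p = 0.091). Egr4 was at 19.3, 19.3 and 32.8 TPM untreated and 8.09, 9.59 and 9.05 TPM with KA (-1.28 ± 0.25, adjusted p = 0.093). Npas4, a factor found almost only in neurons and induced by calcium, was at 9.44, 4.71 and 6.19 TPM untreated and 1.42, 1.64 and 2.66 TPM with KA (-1.40 ± 0.30, adjusted p = 0.11). Each of these had all 3 KA libraries below all 3 untreated ones, as had Nr4a1, at 49.2, 50.2 and 34.4 TPM untreated and 20.9, 19.7 and 24.8 TPM with KA (-0.99 ± 0.21, adjusted p = 0.11). Egr1 was at 99.7, 82.1 and 51.8 TPM untreated and 33.6, 34.7 and 40.8 TPM with KA (-1.03 ± 0.26, adjusted p = 0.15). Arc, which trims glutamate receptors from synapses, was at 117, 96.8 and 73.5 TPM untreated and 45.6, 33.9 and 59.5 TPM with KA (-1.04 ± 0.26, adjusted p = 0.15). In both genes untreated 3 was the lowest of the untreated libraries and still above every KA library. Fos itself overlapped between the groups, at 23.0, 17.1 and 9.30 TPM untreated and 9.68, 13.1 and 16.6 TPM with KA (-0.25 ± 0.36, adjusted p = 0.71). Homer1, a scaffold of the synapse, was at 49.4, 40.4 and 47.1 TPM with KA, inside the span that untreated 3 gives the untreated group. Nptx2, a secreted pentraxin that gathers AMPA receptors, was at 22.8, 24.2 and 18.0 TPM untreated and 24.6, 21.3 and 22.3 TPM with KA, and Bdnf, a neurotrophin, at 22.2, 26.8 and 13.5 TPM untreated and 22.5, 21.1 and 27.4 TPM with KA. The groups overlapped in both.

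The 4 members with an unadjusted p under 0.05 in the other direction were Ier3 (5.79, 5.17 and 4.35 TPM untreated and 7.60, 16.1 and 11.2 TPM with KA), the G-protein inhibitor Rgs2 (21.2, 16.9 and 17.5 and 31.8, 30.4 and 25.3 TPM), Maff (1.02, 0.90 and 0.24 and 1.59, 2.24 and 1.77 TPM) and Ier5 (31.5, 32.6 and 31.8 and 43.8, 40.8 and 40.2 TPM), and in all 4 the groups did not overlap. Without untreated 3, 9 members were called and all were lower with KA, where 0.81% of all genes were (Egr1, Nr4a1, Egr4, Dusp6, Junb, Nr4a2, Nr4a3, Homer1 and Egr3), Egr1 with a log2 fold change of -1.30, adjusted p = 0.038 by limma. Median-ratio scaling moved the median of all genes from 0.25 to -0.0019 and called 1 member, Nr4a1, lower, where 0.0524% of all genes were. Summed markers of microglia (503 to 620.4 TPM untreated and 1348 to 3505 TPM with KA), astrocytes (1376 to 1924 and 2363 to 3948 TPM) and choroid plexus and ependyma (140.5 to 1096 and 1501 to 2266 TPM) did not overlap between the groups, and those of neurons did (2693 to 4910.1 and 3733 to 4191 TPM). Gfap, at 221 to 319 TPM untreated and 638 to 1868 TPM with KA, made up most of the astrocyte rise. By limma 0 of 8 astrocyte markers were called. The part of these markers in the result was not tested.

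In the second KA cohort most members again lay lower in KA than in untreated brain, and none was called. Of 34 members tested with edgeR, 0 were called, where 0.0558% of 23318 genes were. At an unadjusted p under 0.05, 16 were lower, where 3.21% of all genes were, and 1 was higher, where 3.5% were. In all, 30 members had a fold change below 0 and 4 above it, with a median of -0.51 against 0.003 for all genes.

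Fos was at 35.6, 48.2 and 21.3 TPM in untreated 1 to 3 and 5.97, 6.78, 8.24 and 12.9 TPM in KA 1 to 4 (-1.95 ± 0.36, adjusted p = 0.14). Dusp5, a nuclear phosphatase of the kinase ERK, was at 21.3, 19.8 and 14.5 TPM untreated and 11.01, 7.71, 10.02 and 10.3 TPM with KA (-0.91 ± 0.17, adjusted p = 0.15). Egr2 was at 4.27, 5.01 and 2.22 TPM untreated and 0.15, 0.24, 0.35 and 0.83 TPM with KA (-3.25 ± 0.66, adjusted p = 0.22). In these genes every KA library was below every untreated one, and the same held for Dusp1, a stress-induced MAP kinase phosphatase, at 35.4, 39.1 and 21.9 TPM untreated and 11.01, 10.8, 14.4 and 20.99 TPM with KA (-1.17 ± 0.26, adjusted p = 0.32). Egr1 was at 103, 83.3 and 54.9 TPM untreated and 34.5, 31.2, 29.1 and 69.4 TPM with KA (-0.95 ± 0.32, adjusted p = 0.64). Arc was at 149, 108 and 69.6 TPM untreated and 43.8, 30.1, 44.0 and 80.4 TPM with KA (-1.12 ± 0.31, adjusted p = 0.51). Nr4a1 was at 112, 103 and 62.1 TPM untreated and 47.0, 35.9, 38.2 and 74.7 TPM with KA (-0.98 ± 0.29, adjusted p = 0.55). In these 3 genes KA 4 was the highest KA library and the only one that reached into the untreated range. KA 4 also had Gfap at 978 TPM, against 431, 357 and 464 TPM in KA 1 to 3, and mitochondrial transcripts at 18.3% of TPM, against 16.3% to 16.6%. Its Aqp4, at 85.3 TPM, lay within the 82.5 to 88.9 TPM of KA 1 to 3. Npas4 was at 9.55, 14.1 and 8.76 TPM untreated and 8.12, 8.73, 7.50 and 4.91 TPM with KA (-0.56 ± 0.22, adjusted p = 0.69) with no overlap, and here KA 4 was the lowest. Homer1 was at 54.3, 49.4 and 48.3 and 53.8, 37.3, 36.2 and 42.6 TPM, Nptx2 at 26.8, 20.1 and 16.99 and 20.6, 16.5, 13.3 and 31.7 TPM and Bdnf at 39.9, 27.7 and 27.2 and 26.1, 28.6, 23.4 and 25.8 TPM untreated and with KA, and in each of the 3 the groups overlapped.

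The lower levels were spread over the roles: the median fold change was -0.83 for the EGR factors, -0.69 for the AP-1 and Maf factors, -0.59 for the NR4A receptors and -0.20 for the synaptic and secreted effectors. The one member with an unadjusted p under 0.05 in the other direction was Ier3, at 7.97, 13.6 and 8.41 TPM untreated and 14.6, 20.4, 15.7 and 9.83 TPM with KA (0.62 ± 0.26, adjusted p = 0.71). DESeq2's Wald test called 0.214% of all genes lower, 6 members among them (Fos, Egr2, Dusp5, Dusp1, Junb and Arc), Fos with -1.94, adjusted p = 4.5e-05. Sex differs with the treatment throughout this comparison. Summed microglial markers were at 412 to 482 TPM untreated and 546 to 936 TPM with KA and summed erythrocyte markers at 322 to 398 and 209.9 to 263 TPM, without overlap, while summed neuronal markers overlapped at 5643 to 5868 and 5333 to 6055 TPM. Their part in the result was not tested.

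**Figure D1:**
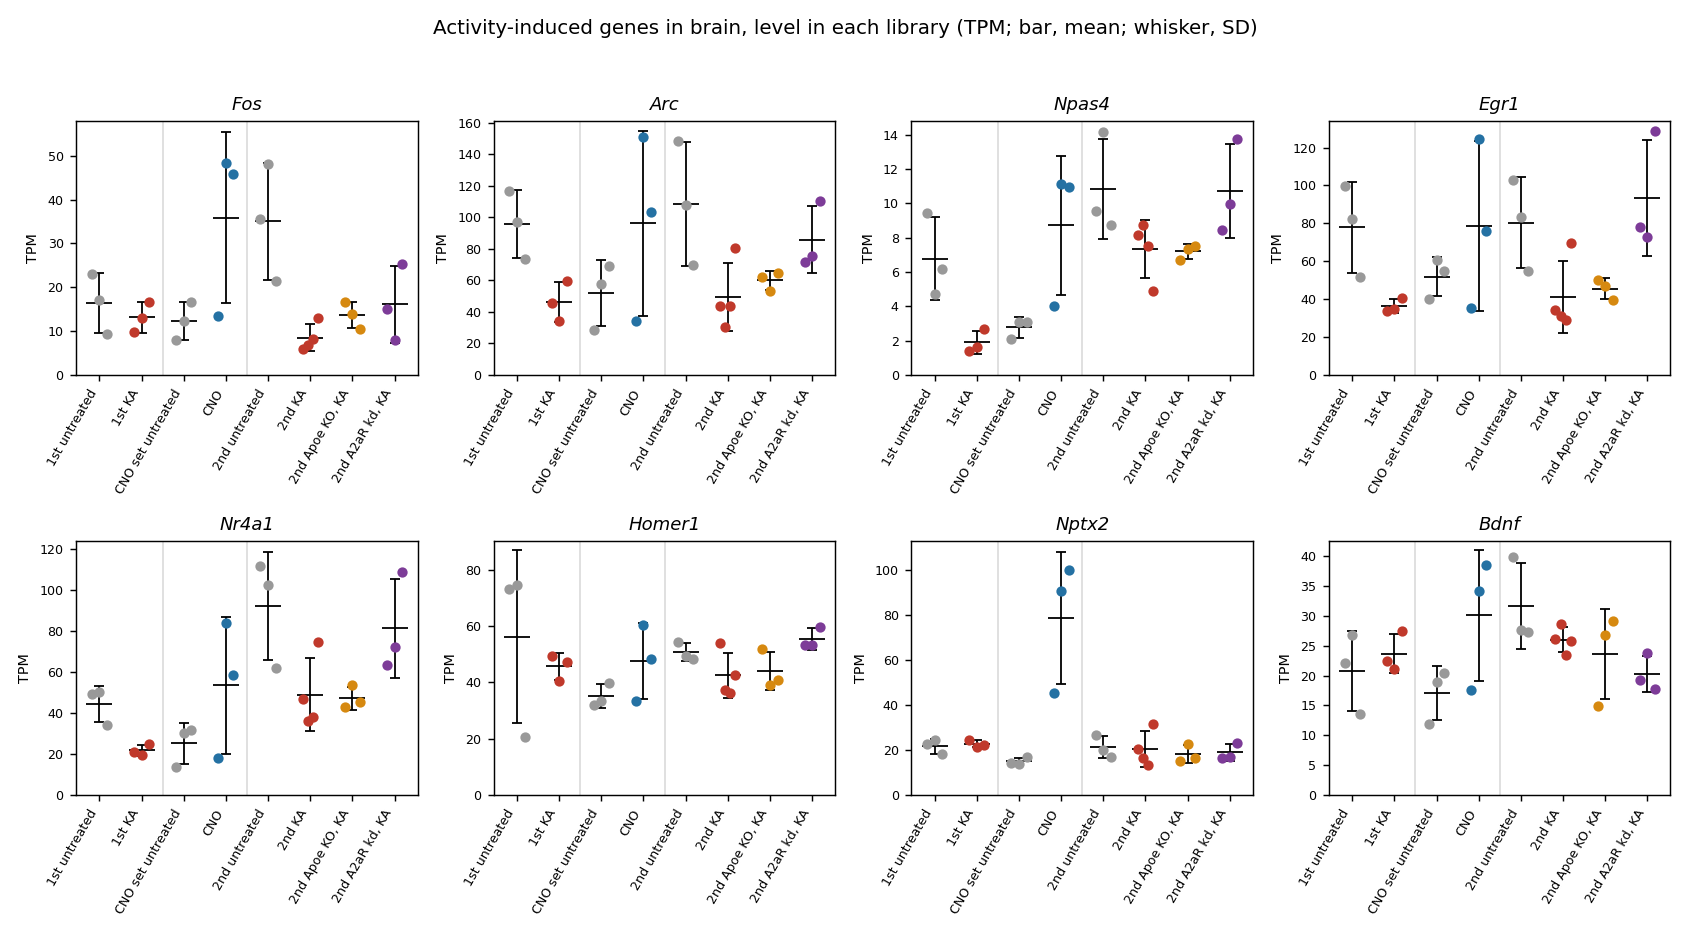
Level in TPM (y axis, from 0) of 8 members in each brain library (points), by group (x axis) and table (grey lines), with the mean (bar) and SD (whisker). Nptx2 stood at 45.4 to 100.2 TPM with CNO against 13.6 to 16.8 TPM in its untreated group, while Egr1, Arc and Nr4a1 had lower means in KA than in untreated brain in both KA cohorts.

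In CNO brain most members lay higher than in its untreated group, and few were called. Of 33 members tested by limma (Fosl1 was too low), 3 were higher with CNO, where 3.46% of all 15453 genes were, and 0 were lower, where 0.233% were. Before adjustment, 0 members were lower with CNO at p under 0.05, against 3.79% of all genes. The fold change was above 0 in 27 members and below it in 6, and its median was 0.43 against 0.04 for all genes. CNO and KA brain were not in the same table and were not tested against each other.

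Nptx2 was at 14.2, 13.6 and 16.8 TPM in untreated 1 to 3 and 45.4, 90.8 and 100.2 TPM in CNO 1 to 3 (2.25 ± 0.27, adjusted p = 0.0066). Gadd45g, a stress sensor tied to growth arrest and DNA demethylation, was at 24.2, 32.4 and 29.5 TPM untreated and 47.0, 64.4 and 71.6 TPM with CNO (1.05 ± 0.17, adjusted p = 0.019). Rgs2 was at 20.2, 23.9 and 21.7 TPM untreated and 31.3, 32.5 and 33.8 TPM with CNO (0.55 ± 0.10, adjusted p = 0.025). In all 3 the groups did not overlap, and Maff, next by p, was at 0.79, 1.21 and 0.84 TPM untreated and 1.98, 3.24 and 4.71 TPM with CNO (1.10 ± 0.26, adjusted p = 0.064).

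Fos, Arc and Nr4a1 were higher with CNO in every pair of same-numbered libraries, a pairing that the labels do not give. None of the 3 was called, and the fit with the replicate number as a block, given below, called only Fos of them. Fos was at 8.01, 12.4 and 16.7 TPM untreated and 13.4, 48.4 and 45.8 TPM with CNO (1.32 ± 0.48, adjusted p = 0.22). Arc was at 28.8, 57.6 and 69.2 and 34.5, 151 and 103 TPM (0.73 ± 0.53, adjusted p = 0.58), and Egr1 at 40.2, 60.5 and 55.02 and 35.3, 125 and 75.8 TPM (0.43 ± 0.40, adjusted p = 0.67). Nr4a1 was at 13.8, 30.3 and 31.9 and 17.8, 84.2 and 58.4 TPM (0.88 ± 0.55, adjusted p = 0.51). In each of these 4, CNO 2 and CNO 3 were above every untreated library and CNO 1 was not, and Egr1 was lower in CNO 1 than in untreated 1. Npas4 was above the untreated range in all 3, at 2.08, 3.10 and 3.11 TPM untreated and 4.04, 11.1 and 10.9 TPM with CNO (1.27 ± 0.34, adjusted p = 0.1). Bdnf was at 11.9, 18.9 and 20.4 TPM untreated and 17.6, 34.1 and 38.5 TPM with CNO (0.74 ± 0.31, adjusted p = 0.29), and Homer1 at 32.0, 33.3 and 39.9 and 33.5, 60.4 and 48.4 TPM (0.39 ± 0.20, adjusted p = 0.41). Without CNO 1, 8 members were called, all higher, where 3.58% of all genes were (Nptx2, Npas4, Gadd45g, Fos, Maff, Fosl2, Gadd45b and Rgs2). Leaving out CNO 2, CNO 3, untreated 1 or untreated 3 left only Nptx2.

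Libraries of the same replicate number deviated together in the CNO set, and the fit with the replicate number as a block called 4.94% of all genes higher and, of the members, 9 higher and none lower: Nptx2, Gadd45g, Gadd45b, Junb, Bdnf, Npas4, Fos, Rgs2 and Maff. In that limma fit Fos had 1.32, adjusted p = 0.022, Npas4 1.27, adjusted p = 0.021 and Bdnf 0.74, adjusted p = 0.015. Its pairing was read from these same data and not from the labels, so it is not a separate check. Jun, Dusp1, Egr4, Nr4a3, Dusp4, Klf2 and Btg2 had fold changes between -0.12 and 0.16 in the fit without the block. Summed astrocyte markers were at 1882 to 2130.0 TPM untreated and 4066 to 4239 TPM with CNO. Gfap alone, at 261 to 320 TPM untreated and 2143 to 2576 TPM with CNO, made up nearly all of that rise. By limma 3 of 8 astrocyte markers and 10 of 10 microglial markers were called higher. Summed microglial markers were at 448 to 519.8 and 1214 to 1536 TPM and summed neuronal markers at 4645 to 4804 and 4047 to 4944 TPM. Markers of dentate granule neurons summed to 245 to 280.4 TPM untreated and 176 to 214 TPM with CNO, with 2 of 6 called lower by limma, and the markers' part in the result was not tested.

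The 59 other genes of the pathway were 15 late-response genes, 19 other early genes, 12 feedback inhibitors of ERK and 13 upstream factors. All were tested in CNO by limma, and 4 were higher and 0 lower, where 3.46% and 0.233% of all genes were. Before adjustment at p under 0.05, 1 was lower, against 3.79% of all genes, and 18 were higher. The share of all genes higher at that level is not given here, so the 18 cannot be read against it. The neuropeptide precursor Penk was at 128 ± 23.3 against 41.6 ± 7.45 TPM (mean ± SD, n = 3 each; 1.59 ± 0.16, adjusted p = 0.0036 by limma). The stress factor Atf3 was at 6.81 ± 2.20 against 0.94 ± 0.17 TPM (1.97 ± 0.24, adjusted p = 0.0062 by limma). The other 2 were Zfp36, which marks early transcripts for decay (0.88 ± 0.15, adjusted p = 0.022 by limma), and Ccn1 (1.77 ± 0.32, adjusted p = 0.025 by limma). In the second KA cohort 2 of 59 were called, where 0.0558% of all genes were. Both were lower, the kinases Sgk1 (-0.97 ± 0.07, adjusted p = 2.8e-05 by edgeR) and Sik1 (-1.44 ± 0.18, adjusted p = 0.0049 by edgeR). In the first cohort 0 of 58 tested were called by limma, where 0.183% of all genes were. Before adjustment 2 were higher at p under 0.05, against 11.6% of all genes.

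No member was called between APOE knock out and other mice given KA. Of 34 tested with edgeR, 0 were called against KA brain, where 0.112% of all genes were. At an unadjusted p under 0.05, 1 was higher, where 4.06% of all genes were, and 1 lower, where 5.27% were, and the median was 0.06. Gadd45g was at 18.2, 17.8, 22.1 and 22.01 TPM in KA 1 to 4 and 29.0, 27.7 and 25.9 TPM in knockout 1 to 3 (0.46 ± 0.15, adjusted p = 0.38), with no overlap. Ier3 was at 14.6, 20.4, 15.7 and 9.83 TPM in KA and 8.99, 11.8 and 7.46 TPM in the knockout (-0.67 ± 0.27, adjusted p = 0.46). Klf4 was at 3.50, 2.13, 3.15 and 2.79 and 8.07, 3.71 and 3.61 TPM (0.40 ± 0.19, adjusted p = 0.54) and Nr4a3 at 6.96, 22.6, 11.3 and 26.5 and 31.4, 25.8 and 32.2 TPM (0.88 ± 0.51, adjusted p = 0.65). Gadd45g and Klf4 were above every KA library, and Ier3 and Nr4a3 overlapped. Of the activity markers, Fos was at 16.6, 13.98 and 10.5 TPM, Arc at 61.8, 53.5 and 64.6 TPM, Npas4 at 6.71, 7.34 and 7.53 TPM, Egr1 at 50.2, 46.8 and 39.5 TPM, Nr4a1 at 42.8, 53.7 and 45.2 TPM, Homer1 at 51.6, 39.1 and 40.9 TPM, Nptx2 at 15.2, 22.6 and 16.3 TPM and Bdnf at 14.96, 26.8 and 29.1 TPM. Each of these 8 overlapped the KA values given above. Of the 59 other genes of the pathway, 0 were called by edgeR, with 6 higher and 4 lower before adjustment at p under 0.05. Summed markers of mural cells and fibroblasts were at 153 to 178 TPM against 117 to 131 TPM in KA. Erythrocyte markers were at 290 to 368 against 209.9 to 263 TPM and microglial ones at 504 to 527 against 546 to 936 TPM. Neuronal ones overlapped. None of these markers was called by edgeR, and their part in the result was not tested.

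In the libraries labelled A2aR knock down 28 members lay higher than in KA and 6 lower, and none was called. Of 34 tested with edgeR, 0 were called, where 0.0386% of all genes were. At an unadjusted p under 0.05, 12 were higher, where 4.09% of all genes were, and 1 (Jun) was lower, where 5.15% were, with a median of 0.44. This comparison, that of the knockout and that of KA with untreated brain share the 4 KA libraries, so a low value there shows in all of them.

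Dusp5 was at 18.4, 14.7 and 17.5 TPM in the 3 libraries labelled knock down, all above the KA range of 7.71 to 11.01 TPM (0.88 ± 0.17, adjusted p = 0.15). Dusp6, a cytoplasmic ERK phosphatase, was at 37.8, 39.1 and 46.5 TPM against 29.7, 22.7, 21.6 and 34.1 TPM in KA (0.69 ± 0.16, adjusted p = 0.25). Junb was at 43.3, 47.0 and 62.0 TPM against 30.6, 27.5, 31.9 and 40.0 TPM (0.74 ± 0.18, adjusted p = 0.29). Egr1 was at 78.3, 72.9 and 129 TPM against 34.5, 31.2, 29.1 and 69.4 TPM (1.29 ± 0.32, adjusted p = 0.29). In all 4 genes no library of this group fell to the highest KA library. Fos was at 14.97, 8.01 and 25.4 TPM, Arc at 71.5, 75.4 and 110.2 TPM, Npas4 at 8.46, 9.94 and 13.7 TPM and Nr4a1 at 63.4, 72.1 and 109 TPM. Homer1 was at 53.2, 53.1 and 59.8 TPM, Nptx2 at 16.6, 16.9 and 23.2 TPM and Bdnf at 19.3, 23.7 and 17.8 TPM. Each of these 7 overlapped the KA values given above. DESeq2's Wald test called 0.304% of all genes higher, 4 members among them (Dusp5, Dusp6, Junb and Egr4), Dusp5 with 0.88, adjusted p = 0.00086. Of the 59 other genes of the pathway, 0 were called by edgeR, with 12 higher and 5 lower before adjustment at p under 0.05. Summed erythrocyte markers were at 312 to 445 TPM against 209.9 to 263 TPM in KA, with 1 of 3 called higher by edgeR. Summed neuronal markers overlapped, at 5686 to 5882 and 5333 to 6055 TPM, as did microglial ones, at 542 to 682 and 546 to 936 TPM. Their part in the result was not tested.

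All 34 members passed the filter on low values in cultured astrocytes, and their levels were not tested against brain. In untreated wild-type cultures Arc was at 1.46, 1.33 and 1.14 TPM, Egr3 at 1.33, 1.31 and 1.32 TPM, Nr4a1 at 2.59, 3.31 and 2.60 TPM, Nptx2 at 1.85, 2.11 and 1.50 TPM and Egr4 at 0.04, 0.04 and 0.12 TPM, while Gadd45g was at 139.5, 137 and 141 TPM, Dusp1 at 128, 127 and 118 TPM, Jund at 103, 115 and 107 TPM and Maff at 61.4, 63.9 and 58.6 TPM. The 7 neuronal markers summed to 331 to 361 TPM. Rbfox3 was at 0.06 to 0.26 and Snap25 at 0 to 0.09 TPM, and Slc17a7 was scarce too. Almost all of that sum therefore lay in Syt1, Stmn2, Gad1 and Camk2a, which are not given singly. The astrocyte markers Gfap and Aqp4 were at 1080.2 to 1223 and 254 to 292 TPM. Astrocyte markers summed to 2069 to 2321 TPM, and markers of mural cells and fibroblasts to 7462 to 8156 TPM.

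No member was called with medium from neurons in wild-type astrocytes. Of 34 tested by limma, 0 were called, where 0.0371% of all 16161 genes were. At an unadjusted p under 0.05, 0 were higher, where 3.56% of all genes were, and 3 lower, where 2.82% were, with a median of -0.011. Dusp4, a nuclear ERK phosphatase, was at 12.03, 11.2 and 9.62 TPM untreated and 6.63, 7.74 and 8.49 TPM with medium (-0.47 ± 0.12, adjusted p = 0.24). Maff was at 61.4, 63.9 and 58.6 and 45.6, 56.2 and 51.6 TPM (-0.26 ± 0.07, adjusted p = 0.34), and Fosl2 at 27.04, 28.1 and 25.4 and 22.8, 23.1 and 24.2 TPM (-0.19 ± 0.09, adjusted p = 0.78). In these 3 the medium libraries were all lower, and Dusp6 overlapped, at 78.7, 74.9 and 77.7 and 59.3, 62.2 and 80.7 TPM (-0.20 ± 0.10, adjusted p = 0.8). Medium 3 was the highest of its group for Fos (17.2, 14.6 and 32.1 TPM), Egr1 (18.9, 19.4 and 53.6 TPM) and Ier2 (14.2, 14.1 and 27.3 TPM).

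Medium from APOE KO neurons was compared with that normal medium. By limma 2 members were higher, where 0.965% of all genes were, and 0 were lower, where 0.452% were. Before adjustment, 0 were lower at p under 0.05, against 5.62% of all genes. Klf2, a quiescence factor, was at 9.85, 11.7 and 13.1 TPM with normal medium and 17.1, 19.2 and 13.5 TPM with knockout medium (0.48 ± 0.12, adjusted p = 0.039). Junb was at 25.3, 22.6 and 31.9 TPM with normal and 40.7, 44.0 and 34.7 TPM with knockout medium (0.57 ± 0.14, adjusted p = 0.042). Neither group overlapped the other in these 2 genes. Dusp6 was at 90.0, 89.7 and 82.2 TPM with knockout medium (0.38 ± 0.10, adjusted p = 0.078), and Dusp1 at 91.8, 93.9 and 144.9 TPM with normal and 158, 164 and 121 TPM with knockout medium (0.44 ± 0.13, adjusted p = 0.1). Egr1 and Fos were at 61.5, 68.2 and 28.3 and at 30.3, 39.2 and 20.6 TPM with knockout medium, so that knockout medium 3 fell within the normal-medium range and normal medium 3 within the knockout-medium range. Without normal medium 3, 7 members were called, all higher, where 0.689% of all genes were, and without knockout medium 3, 5, where 0.577% were. The 2 calls rest on this setting: 0 members were called with a pseudocount of 0.1, without the filter on low values, with median-ratio scaling, with the replicate number as a block or in a fit of only the groups compared.

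Both fatty acids raised most members in wild-type astrocytes. Oleic acid, a monounsaturated fatty acid, raised 23 and lowered 6 of 34 by limma, where 31.2% and 28.6% of all genes were higher and lower. Palmitic acid, the saturated one, raised 30 and lowered 0, where 26.8% and 33.1% were. Npas4 was the 1 member lower with palmitic acid at an unadjusted p under 0.05, against 35.0% of all genes. The median of the members was 0.95 with oleic and 1.45 with palmitic acid, against 0.0018 and -0.08 over all genes. Both comparisons use the same 3 untreated libraries. Many genes outside the list changed too, so the counts are read against those shares.

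The NR4A receptors and AP-1 factors held the largest changes. Nr4a1, an orphan nuclear receptor, was at 2.59, 3.31 and 2.60 TPM untreated, 97.7, 83.3 and 81.0 TPM with oleic and 49.3, 45.7 and 47.9 TPM with palmitic acid. Its log2 fold change was 4.53 ± 0.15, adjusted p = 8.6e-16 with oleic and 3.67 ± 0.15, adjusted p = 9.3e-15 with palmitic acid. Every oleic acid library was above every palmitic acid library, and both groups were far above untreated. Nr4a2 followed, with 1.83 ± 0.19, adjusted p = 4.2e-08 and 1.57 ± 0.19, adjusted p = 2.6e-07 in the same order. Nr4a3 split the acids: it was at 2.51, 3.57 and 3.41 TPM untreated, 23.2, 9.84 and 14.2 TPM with oleic acid (1.94 ± 0.19, adjusted p = 3e-08) and 3.67, 3.97 and 3.33 TPM with palmitic acid (0.17 ± 0.19, adjusted p = 0.47).

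All 8 AP-1 and Maf factors rose with each acid. Junb was at 24.9, 25.9 and 25.6 TPM untreated, 284, 264 and 224 TPM with oleic acid (3.28 ± 0.14, adjusted p = 4.3e-14) and 180.2, 172 and 191 TPM with palmitic acid (2.78 ± 0.14, adjusted p = 2.5e-13). Fosb was at 0.62, 0.91 and 0.71 TPM untreated, 14.2, 7.76 and 13.2 TPM with oleic acid (2.83 ± 0.16, adjusted p = 2.6e-12) and 33.7, 32.7 and 33.2 TPM with palmitic acid (4.29 ± 0.16, adjusted p = 1.1e-15). Fosl1, a Fos relative of migrating and transformed cells, was at 2.73, 2.80 and 1.91 TPM untreated, 11.7, 6.72 and 8.47 TPM with oleic acid (1.50 ± 0.30, adjusted p = 0.00021) and 115, 117 and 119.9 TPM with palmitic acid (5.09 ± 0.30, adjusted p = 3.3e-12). Fosl1 was thus the member with the largest rise with palmitic acid. Jun was at 77.0, 82.0 and 78.4 TPM untreated, 128, 127 and 124 TPM with oleic acid (0.67 ± 0.06, adjusted p = 1e-08) and 281, 281 and 275 TPM with palmitic acid (1.81 ± 0.06, adjusted p = 6.1e-16). Fosl2 was at 27.04, 28.1 and 25.4, 37.0, 34.5 and 34.9 and 99.6, 102 and 97.3 TPM in the same order (0.39 ± 0.09 with oleic and 1.85 ± 0.09, adjusted p = 1.9e-13 with palmitic acid). Maff, a small Maf that lacks an activation domain, was at 61.4, 63.9 and 58.6, 92.5, 86.1 and 82.2 and 129.8, 135 and 139 TPM (0.50 ± 0.07 and 1.12 ± 0.07, adjusted p = 1.1e-11). In these 3 factors every palmitic acid library was above every oleic acid library. Jund was higher with oleic than with palmitic acid, at 103, 115 and 107 TPM untreated, 259.9, 302 and 252 TPM with oleic acid (1.31 ± 0.09, adjusted p = 8.3e-11) and 202, 169 and 174 TPM with palmitic acid (0.74 ± 0.09). Fos was at 17.7, 17.6 and 18.4 TPM untreated, 33.9, 37.1 and 43.8 TPM with oleic acid (1.05 ± 0.22, adjusted p = 0.00035) and 93.9, 90.6 and 84.8 TPM with palmitic acid (2.26 ± 0.22, adjusted p = 1.2e-08).

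All 4 EGR factors rose with each acid. Egr1 was at 21.5, 23.6 and 20.9 TPM untreated, 103, 112 and 116 TPM with oleic acid (2.28 ± 0.28, adjusted p = 6.8e-07) and 169.9, 165 and 144 TPM with palmitic acid (2.80 ± 0.28, adjusted p = 2.2e-08). Egr3 was at 1.33, 1.31 and 1.32 TPM untreated, 6.44, 5.29 and 5.93 TPM with oleic acid (1.57 ± 0.15, adjusted p = 1e-08) and 6.15, 5.86 and 4.71 TPM with palmitic acid (1.50 ± 0.15). The Krüppel-like factors moved too: Klf10, induced by TGF-beta, was at 16.6, 16.0 and 16.4, 68.2, 51.4 and 63.9 and 84.7, 79.8 and 79.6 TPM untreated, with oleic and with palmitic acid (1.83 ± 0.10, adjusted p = 3.6e-12, and 2.25 ± 0.10, adjusted p = 4.6e-14). Klf4 was at 10.5, 10.3 and 11.4, 23.2, 15.01 and 19.1 and 44.99, 45.9 and 40.5 TPM (0.76 ± 0.13 and 1.93 ± 0.13, adjusted p = 1.6e-11). Klf2 was at 12.2, 11.5 and 11.4, 9.63, 11.8 and 12.6 and 25.7, 21.2 and 22.2 TPM and rose with palmitic acid (0.92 ± 0.12, adjusted p = 5.6e-07, and -0.04 ± 0.12, adjusted p = 0.77 with oleic acid). Npas4 was at 2.03 to 2.62 TPM with oleic and 1.49 to 2.30 TPM with palmitic acid, against 2.02 to 2.53 TPM untreated, and was called with neither acid.

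The phosphatases moved differently with the acids. Dusp5 was at 12.2, 13.2 and 12.4 TPM untreated, 35.4, 34.01 and 32.8 TPM with oleic acid (1.36 ± 0.09, adjusted p = 2.7e-11) and 107, 99.4 and 104 TPM with palmitic acid (2.94 ± 0.09, adjusted p = 5e-17). Dusp6 fell with oleic acid, to 46.8, 40.9 and 40.7 TPM from 78.7, 74.9 and 77.7 TPM (-0.84 ± 0.10, adjusted p = 5.7e-07), and rose to 139.6, 131 and 122 TPM with palmitic acid (0.75 ± 0.10, adjusted p = 1.8e-06). Dusp1 fell to 88.8, 102 and 97.6 TPM from 128, 127 and 118 TPM (-0.37 ± 0.13, adjusted p = 0.016) and rose to 344, 331 and 319.6 TPM (1.41 ± 0.13, adjusted p = 3.1e-09). Dusp4 rose with palmitic acid, to 30.6, 28.7 and 27.6 TPM (1.33 ± 0.12, adjusted p = 2.1e-09), and was at 11.4, 11.3 and 10.04 TPM with oleic acid. Dusp1, Dusp6 and Dusp4 thus stood above untreated in every palmitic acid library and at or below it with oleic acid. Rgs2 fell with oleic acid, to 8.77, 7.87 and 8.44 TPM from 18.98, 17.9 and 15.9 TPM (-0.99 ± 0.16, adjusted p = 1.4e-05), and was at 14.8, 18.3 and 17.2 TPM with palmitic acid.

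Among growth and stress regulators, Gadd45g was at 139.5, 137 and 141 TPM untreated, 344, 355 and 330.1 TPM with oleic acid (1.29 ± 0.06, adjusted p = 5.9e-14) and 359, 358 and 333 TPM with palmitic acid (1.32 ± 0.06, adjusted p = 1.6e-14). Gadd45b was at 58.7, 61.1 and 59.9, 202, 169 and 165 and 278, 301 and 337 TPM (1.55 ± 0.10, adjusted p = 2.8e-11, and 2.33 ± 0.10, adjusted p = 1.6e-14). Gadd45g reached like levels with both acids, while Gadd45b was higher with palmitic acid. Ier2 was at 15.9, 16.4 and 14.1, 63.6, 76.9 and 65.7 and 112, 102 and 91.7 TPM and Ier3 at 27.4, 31.0 and 28.0, 49.8, 39.9 and 38.1 and 167, 184 and 224 TPM, and both rose with each acid. Btg2, an antiproliferative gene, was at 42.2, 43.4 and 43.8 TPM untreated, 35.2, 32.6 and 36.9 TPM with oleic acid (-0.30 ± 0.08, adjusted p = 0.0027) and 82.3, 84.1 and 80.5 TPM with palmitic acid (0.92 ± 0.08, adjusted p = 1.8e-09). Ier5 rose with palmitic acid and was not called with oleic acid (0.43 ± 0.06, adjusted p = 9.9e-07, and 0.12 ± 0.06, adjusted p = 0.075 with oleic acid), and the difference between the acids was called as well (-0.31 ± 0.06, adjusted p = 6.9e-05).

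The effectors known from synapses did not move as one. Arc was at 1.46, 1.33 and 1.14 TPM untreated, 6.50, 7.33 and 6.76 TPM with oleic acid (1.77 ± 0.16, adjusted p = 6.6e-09) and 9.03, 8.05 and 7.36 TPM with palmitic acid (1.98 ± 0.16, adjusted p = 5.8e-10). Bdnf fell with oleic acid, to 2.04, 1.55 and 1.80 TPM from 9.72, 8.41 and 8.63 TPM (-1.83 ± 0.17, adjusted p = 7.7e-09), and rose to 14.8, 17.6 and 15.8 TPM with palmitic acid (0.78 ± 0.17, adjusted p = 0.00036). Nptx2 did likewise at low levels, from 1.85, 2.11 and 1.50 TPM to 0.64, 0.65 and 0.73 TPM with oleic acid (-0.75 ± 0.12, adjusted p = 1.5e-05) and 3.96, 3.23 and 4.06 TPM with palmitic acid (0.75 ± 0.12, adjusted p = 1.1e-05). Bdnf and Nptx2 therefore moved in opposite directions with the acids. Homer1 was at 10.1, 9.97 and 9.24, 11.7, 6.88 and 9.56 and 11.7, 11.9 and 10.2 TPM and was not called with either.

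**Figure D2:**
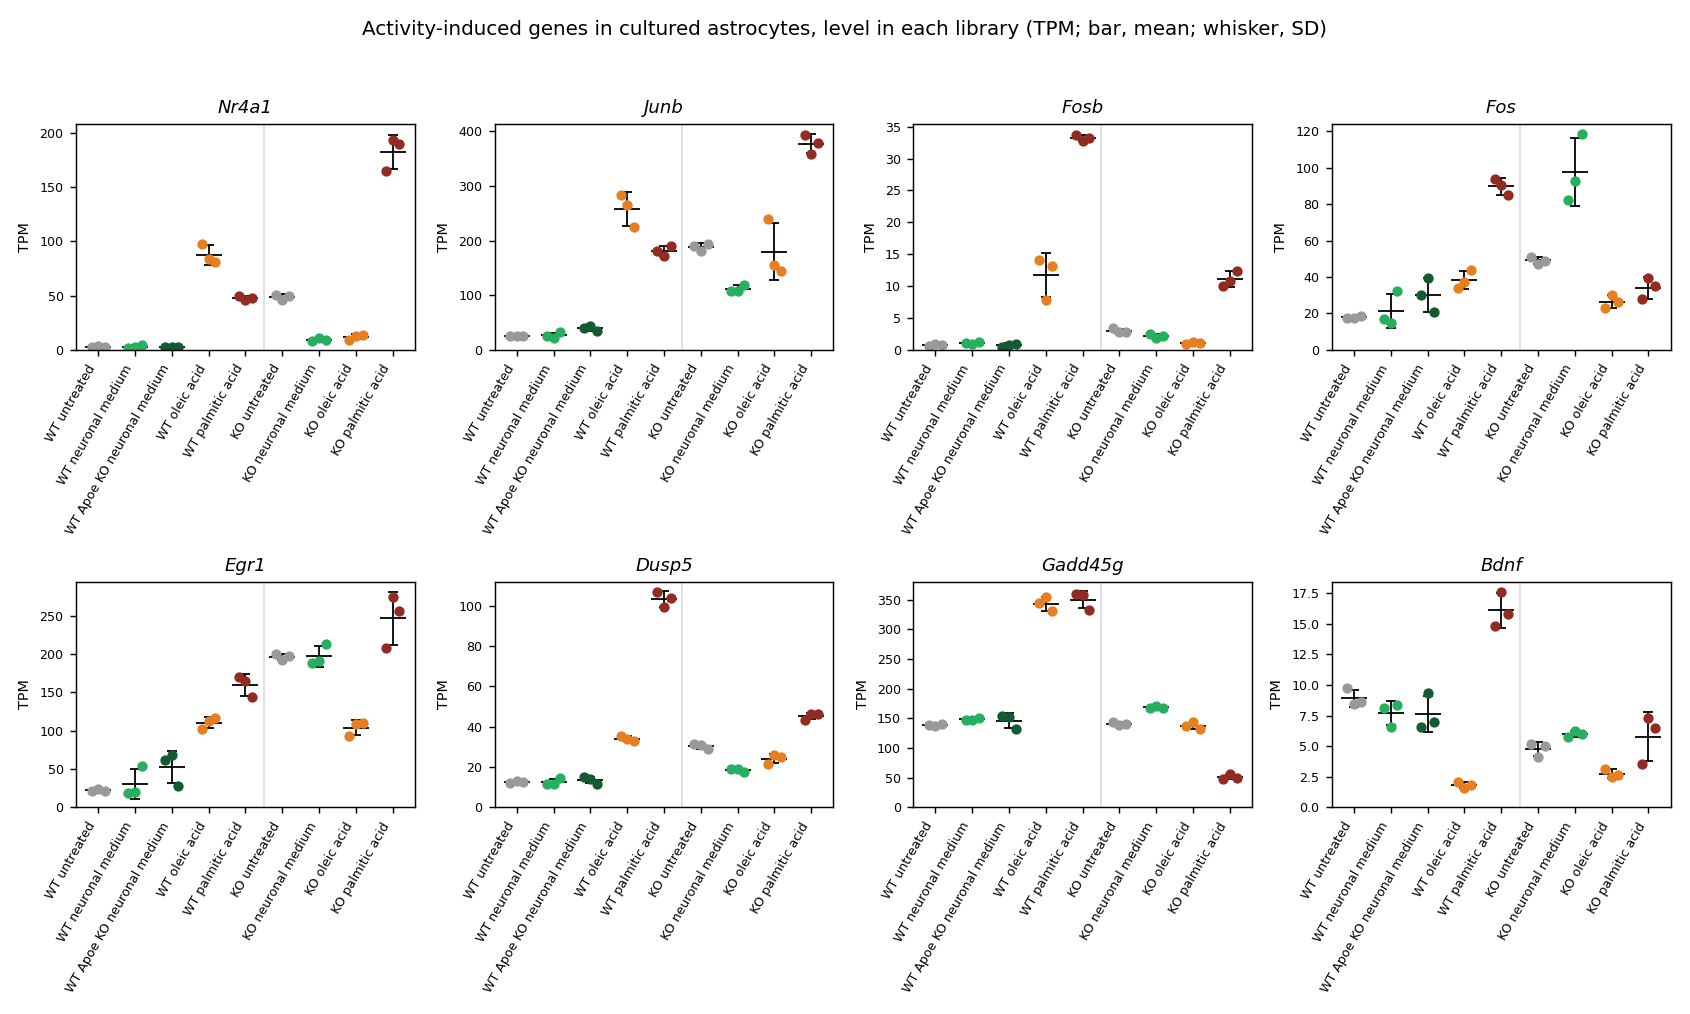
Level in TPM (y axis, from 0) of 8 members in each astrocyte library (points), by genotype (grey line) and treatment (x axis), with the mean (bar) and SD (whisker). Nr4a1 stood at 2.59 to 3.31 TPM in untreated wild-type and 46.0 to 50.2 TPM in untreated knockout cultures, and its oleic acid libraries lay above the untreated ones in wild type and below them in the knockout.

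Other properties of the cultures moved with the fatty acids. Astrocyte markers summed to 1037 to 1064 TPM with oleic and 615 to 759 TPM with palmitic acid, against 2069 to 2321 TPM untreated, microglial markers to 747 to 859 and 835 to 944 TPM against 369.7 to 417 TPM, and markers of mural cells and fibroblasts to 3787 to 4265 and 3247 to 3600.1 TPM against 7462 to 8156 TPM. Mitochondrial transcripts were 2.96% to 3.98% of TPM with oleic and 3.48% to 4.17% with palmitic acid, against 5.52% to 6.83% untreated. The Y-linked Ddx3y was at 19.1, 14.9 and 18.8 TPM untreated, 1.27, 0.52 and 1.35 TPM with oleic and 3.62, 4.49 and 3.22 TPM with palmitic acid, and Xist at 36.8, 30.7 and 36.3, 13.5, 6.57 and 15.03 and 18.4, 20.97 and 15.5 TPM. The part of these differences in the results was not tested.

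The start regions of 4 of the genes that rose with the fatty acids are shown so that the motifs of early gene promoters can be seen in them. RefSeq promoters (build GRCm38.p6, which is mm10) from 250 bases before to 50 after the start were at hand for 26 of the 34 members, 39 promoters in all, of 32851 in the table. The motifs were searched on both strands, and capitals mark the matches: TGACG or its complement CGTCA (the core of the cAMP response element, which is also part of the full element TGACGTCA), GCGGGGGCG or its complement (an EGR site) and the CArG box. Nr4a1, which had the largest rise with oleic acid, is shown at chr15:101266596-101266895 on the plus strand, Fosb at chr7:19309996-19310295 on the minus strand, Fos at chr12:85473640-85473939 on the plus strand, and Dusp5, with the smallest p for palmitic acid, at chr19:53528895-53529194 on the plus strand.
Nr4a1: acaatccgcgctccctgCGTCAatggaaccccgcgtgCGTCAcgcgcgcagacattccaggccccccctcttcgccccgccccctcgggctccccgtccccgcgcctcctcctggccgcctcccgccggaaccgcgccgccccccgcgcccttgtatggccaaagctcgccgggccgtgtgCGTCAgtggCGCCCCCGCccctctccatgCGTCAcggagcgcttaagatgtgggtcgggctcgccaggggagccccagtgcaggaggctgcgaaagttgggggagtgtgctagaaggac
Fosb: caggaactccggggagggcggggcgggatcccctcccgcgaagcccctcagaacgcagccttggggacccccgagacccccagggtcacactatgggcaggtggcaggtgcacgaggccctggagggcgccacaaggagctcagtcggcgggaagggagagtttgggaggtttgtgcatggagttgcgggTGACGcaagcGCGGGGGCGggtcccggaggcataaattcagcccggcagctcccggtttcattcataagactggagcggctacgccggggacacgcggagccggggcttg
Fos: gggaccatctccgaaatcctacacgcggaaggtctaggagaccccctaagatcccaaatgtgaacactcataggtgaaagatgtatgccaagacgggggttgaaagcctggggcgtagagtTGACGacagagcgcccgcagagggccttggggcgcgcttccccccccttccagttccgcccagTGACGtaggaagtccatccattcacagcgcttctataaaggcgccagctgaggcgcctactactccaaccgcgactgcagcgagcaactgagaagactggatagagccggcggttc
Dusp5: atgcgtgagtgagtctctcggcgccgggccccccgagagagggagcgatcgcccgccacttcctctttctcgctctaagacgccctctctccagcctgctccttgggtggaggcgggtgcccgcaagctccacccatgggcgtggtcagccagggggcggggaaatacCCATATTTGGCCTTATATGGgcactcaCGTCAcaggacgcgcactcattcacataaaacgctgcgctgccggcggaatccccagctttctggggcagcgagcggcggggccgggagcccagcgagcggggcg
The Nr4a1 window holds 4 core sites and 1 EGR site, Fosb 1 of each, Fos 2 core sites, and Dusp5 1 core site beside 2 CArG boxes. The RefSeq start of Nr4a1 used here lies 12577 bases from the start of its GENCODE gene. The core site was in the promoters of 18 of the 26 members, in 53.8% of the 39 member promoters and in 20.8% of all promoters of the table. The full element was in 3 members (Btg2, Dusp1 and Maff), and in 7.69% of member promoters against 1.79% of all. The CArG box was in 2 of 26 members (Egr2 and Dusp5), and in 5 of 39 member promoters, 12.8% against 1.63% of all. Dusp5 has 1 promoter here, so the rest of these 5 are promoters of the single gene Egr2. The EGR site was in 5 members (Fosb, Fosl2, Nr4a1, Klf2 and Klf4), and in 12.8% of member promoters against 2.91% of all. The AP-1 site TGACTCA was in 0 of the members' windows and in 5.20% of all. A match is a run of letters in this window and not a measured binding site. Sequence farther than 250 bases before the start, and variants of these letters, were not searched. A motif missing here, such as the CArG box in Fos, may therefore lie elsewhere near the gene.

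Of the 59 other genes of the pathway, 55 were tested in astrocytes. With oleic acid 32 were higher and 15 lower, where 31.2% and 28.6% of all genes were. With palmitic acid 34 were higher and 4 lower, where 26.8% and 33.1% of all genes were. The smaller counts that follow cover few genes and are to be read against the same shares. Among the 12 feedback inhibitors of ERK, 6 rose and 5 fell with oleic acid, and 9 rose and 1 fell with palmitic acid. Spry2, which blocks growth factor signalling, was at 17.3 ± 1.22 against 31.0 ± 0.65 TPM, with oleic acid and untreated (mean ± SD, n = 3; -0.80 ± 0.09, adjusted p = 2.1e-07 by limma) and at 85.8 ± 2.46 against 31.0 ± 0.65 TPM, with palmitic acid and untreated (1.44 ± 0.09, adjusted p = 1.4e-11 by limma). Among the 11 late-response genes tested, Plk2 fell with oleic acid (-1.52 ± 0.08, adjusted p = 2.2e-12 by limma) and rose with palmitic acid (1.59 ± 0.08, adjusted p = 4e-13 by limma). Ptgs2, which makes prostaglandins, did so too (-1.42 ± 0.23 and 4.09 ± 0.23). Atf3 rose with each (1.87 ± 0.13 and 4.03 ± 0.13). Of the 13 upstream factors 7 were higher and 3 lower with oleic acid and 3 higher and 1 lower with palmitic acid. The kinase Camk4 fell with each (-1.96 ± 0.10 and -1.77 ± 0.10), and Creb1, the factor of the cAMP element, fell with oleic acid (-0.93 ± 0.23, adjusted p = 0.0014 by limma) and was not called with palmitic acid (-0.48 ± 0.23, adjusted p = 0.074 by limma).

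Oleic and palmitic acid were also compared directly, as labelled, since their doses and times are not given. In wild-type cultures 4 members were higher with oleic acid, where 32.4% of all genes were, and 21 lower, where 25.8% were, by limma. The 4 were Nr4a3 (1.77 ± 0.19, adjusted p = 8.2e-08), Nr4a1 (0.86 ± 0.15, adjusted p = 4.9e-05), Jund (0.57 ± 0.09, adjusted p = 1.1e-05) and Junb (0.50 ± 0.14, adjusted p = 0.0042). All 5 phosphatases and signal inhibitors were lower with oleic acid, with Dusp5 (-1.57 ± 0.09, adjusted p = 1.7e-12), Dusp6 (-1.59 ± 0.10, adjusted p = 2.3e-11) and Dusp1 (-1.78 ± 0.13, adjusted p = 9.2e-11) leading. Fosl1 (-3.60 ± 0.30), Bdnf (-2.61 ± 0.17), Ier3 (-2.14 ± 0.18), Nptx2 (-1.50 ± 0.12), Fosb (-1.47 ± 0.16), Fosl2 (-1.46 ± 0.09), Dusp4 (-1.33 ± 0.12), Btg2 (-1.22 ± 0.08) and Jun (-1.13 ± 0.06) were lower with oleic acid as well. None of the 4 EGR factors was called between the acids, which does not show that they act alike: for Egr1 the log2 difference was -0.53 ± 0.28, with a 95% interval from -1.12 to 0.07. Gadd45g was not called either (-0.03 ± 0.06, adjusted p = 0.69).

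Apoe knockout astrocytes carried high levels of many members before any treatment. Against untreated wild-type cultures 25 members were higher, where 23.9% of all genes were, and 3 lower, where 21.1% were, by limma, with a median of 0.97 against 0.05. The knockout cultures had Apoe at 40.4, 47.1 and 43.5 TPM, against 4234, 4787 and 5024 TPM. All 4 EGR factors, 7 of 8 AP-1 and Maf factors and all 4 factors of the mixed group rose, but only 3 of 6 growth and stress regulators.

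Nr4a1 was at 50.2, 46.0 and 49.8 TPM in the knockout against 2.59, 3.31 and 2.60 TPM in wild type (3.70 ± 0.15, adjusted p = 1.1e-14). Junb was at 191, 182 and 194 TPM against 24.9, 25.9 and 25.6 TPM (2.84 ± 0.14, adjusted p = 2.4e-13). Egr3 was at 14.4, 14.6 and 13.7 TPM against 1.33, 1.31 and 1.32 TPM (2.71 ± 0.15, adjusted p = 1.1e-12). These 3 had the smallest p, and the spread within either genotype was small beside the difference. Egr1 was at 199.6, 192 and 198 TPM against 21.5, 23.6 and 20.9 TPM (3.11 ± 0.28, adjusted p = 7.7e-09). Ier2, a nuclear early protein, was at 79.6, 72.5 and 80.6 TPM against 15.9, 16.4 and 14.1 TPM (2.25 ± 0.20, adjusted p = 4.2e-09). Fosl1 was at 18.8, 17.6 and 19.5 TPM against 2.73, 2.80 and 1.91 TPM (2.51 ± 0.30, adjusted p = 4.3e-07). For Nr4a1, Junb and Egr1 untreated knockout cultures thus stood at or above the levels of wild-type cultures with palmitic acid. Arc was at 5.56, 4.61 and 4.97 TPM against 1.46, 1.33 and 1.14 TPM (1.39 ± 0.16, adjusted p = 2.5e-07). Npas4 was at 6.36, 5.12 and 6.37 TPM against 2.53, 2.02 and 2.49 TPM (1.05 ± 0.13, adjusted p = 4.8e-07). Dusp5 was at 31.3, 30.8 and 28.7 TPM (1.20 ± 0.09), Klf10 at 39.3, 35.3 and 34.7 TPM (1.11 ± 0.10), Fosl2 at 54.6, 51.2 and 54.0 TPM (0.96 ± 0.09) and Klf4 at 23.9, 24.6 and 23.4 TPM (1.09 ± 0.13), all above every wild-type library.

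The 3 lower members were Bdnf (5.16, 4.11 and 5.01 TPM; -0.79 ± 0.17, adjusted p = 0.00053), Nr4a3 (1.42, 1.39 and 1.33 TPM; -0.80 ± 0.19, adjusted p = 0.0019) and Rgs2 (10.8, 11.8 and 11.1 TPM; -0.60 ± 0.16, adjusted p = 0.0032). Jun, Gadd45b, Gadd45g, Ier5, Homer1 and Nptx2 were not called, with fold changes of -0.19 to 0.06. Of the 55 other genes of the pathway tested, 32 were higher and 5 lower, where 23.9% and 21.1% of all genes were. Among the higher were Sgk1 (2.71 ± 0.09, adjusted p = 2.3e-16 by limma) and Errfi1, a brake on the EGF receptor (2.004 ± 0.09, adjusted p = 9.3e-14 by limma). The cultures differed otherwise: Gfap was at 70.6, 71.5 and 70.3 TPM in the knockout against 1080.2, 1206 and 1223 TPM, astrocyte markers summed to 449.9 to 464 against 2069 to 2321 TPM, and Ddx3y was at 33.5, 32.0 and 31.3 against 19.1, 14.9 and 18.8 TPM and Xist at 3.81, 2.79 and 2.93 against 36.8, 30.7 and 36.3 TPM. Their part in the result was not tested. The same 28 members were called whichever of the 6 libraries was left out, that with mix in its title included.

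Knockout astrocytes were treated from that raised level. The knockout treatment comparisons all share the untreated knockout libraries, and the interactions share these and the untreated wild-type libraries. A raised untreated knockout level therefore shows in all of them, and they are not separate results. Medium from neurons, which called no member in wild type, lowered 14 and raised 6 in the knockout by limma, where 12.6% and 18.7% of all genes were lower and higher. Nr4a1 fell from 50.2, 46.0 and 49.8 TPM to 8.26, 10.5 and 8.95 TPM (-2.28 ± 0.15, adjusted p = 1.2e-10). Dusp4 fell from 22.2, 20.4 and 23.3 TPM to 9.45, 8.14 and 8.45 TPM (-1.25 ± 0.12, adjusted p = 2.4e-08). Maff fell to 49.4, 48.6 and 44.7 TPM (-0.70 ± 0.07) and Klf10 to 19.6, 19.96 and 18.6 TPM (-0.88 ± 0.10). These levels lie near those of wild-type cultures, except for Nr4a1, which stayed above them. Npas4, which is scarce in these cultures, fell to 2.23, 3.07 and 2.18 TPM (-0.996 ± 0.13, adjusted p = 2.2e-06), Dusp5 to 19.02, 19.2 and 17.5 TPM (-0.67 ± 0.09), Egr3 to 6.79, 6.09 and 6.21 TPM (-1.05 ± 0.15) and Egr4 from 1.03, 1.42 and 1.21 to 0.53, 0.11 and 0.24 TPM (-0.79 ± 0.17). Fosl1 fell to 7.12, 3.91 and 2.54 TPM (-1.91 ± 0.30, adjusted p = 3.1e-05) and Junb to 108, 107 and 119.3 TPM (-0.76 ± 0.14, adjusted p = 0.0002). The members that rose were Fos, from 51.2, 47.4 and 48.9 TPM to 82.2, 92.9 and 118.6 TPM (0.96 ± 0.22, adjusted p = 0.0017), Nr4a3 (0.87 ± 0.19), Rgs2 (0.67 ± 0.16), Jun, to 96.2, 96.6 and 97.4 TPM (0.33 ± 0.06), Gadd45g, to 167, 171 and 168 TPM (0.26 ± 0.06), and Btg2 (0.21 ± 0.08). Egr1 was not called, at 188, 191 and 213 TPM against 199.6, 192 and 198 TPM. Astrocyte markers summed to 449.9 to 464 TPM untreated and 1117 to 1212 TPM with medium, with 8 of 8 called higher by limma and 7 of 8 in the interaction, and 7 of 10 microglial markers were called lower. Their part in the result was not tested.

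The difference between genotypes in the response to medium was called for 13 members. It was higher in the knockout for 2 (Jun and Rgs2), where 11.6% of all genes were, and lower for 11, where 6.95% were. Of the 2 higher ones, Rgs2 was not called with a pseudocount of 0.1, without the filter or, in turn, without 11 of the 12 libraries (all but untreated wild-type 3), and Jun was called each time. In the fit of only the 4 groups compared 4 were higher, with Bdnf and Gadd45g added. Nr4a1 led with an interaction of -2.28 ± 0.21, adjusted p = 8.6e-08, followed by Klf10 (-0.91 ± 0.15), Egr3 (-1.10 ± 0.21), Dusp5 (-0.65 ± 0.12), Npas4 (-0.90 ± 0.18), Dusp4 (-0.78 ± 0.16), Maff (-0.44 ± 0.10), Junb (-0.80 ± 0.20), Fosl1 (-1.53 ± 0.42), Nr4a2 (-0.91 ± 0.27) and Egr4 (-0.80 ± 0.24).

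In the knockout oleic acid lowered many of the members that it raised in wild type. By limma 21 members fell, where 20.1% of all genes did, and 2 rose (Gadd45b and Jund), where 21.7% did, with a median of -0.47 against -0.03. Neither rise was called without knockout oleic acid 1, and Jund was called in 2 of the 6 fits that left out 1 library and not with median-ratio scaling. Microglial markers summed to 315 to 349.7 TPM untreated and 983 to 1104 TPM with oleic acid, with 8 of 10 called higher, and astrocyte markers to 449.9 to 464 and 457 to 461 TPM. Their part in the result was not tested. Nr4a1 fell from 50.2, 46.0 and 49.8 TPM to 9.41, 12.9 and 14.1 TPM (-1.94 ± 0.15, adjusted p = 1.3e-08). Npas4 fell from 6.36, 5.12 and 6.37 TPM to 1.40, 1.74 and 1.40 TPM (-1.46 ± 0.13, adjusted p = 4.7e-08). Egr3 fell to 3.67, 4.95 and 5.62 TPM (-1.42 ± 0.15, adjusted p = 3.4e-07), and Egr2 from 12.8, 10.9 and 12.2 TPM to 3.24, 4.36 and 3.86 TPM (-1.43 ± 0.21, adjusted p = 3e-05). In all 4 genes every oleic acid library was below every untreated one. Arc fell from 5.56, 4.61 and 4.97 TPM to 1.34, 2.17 and 1.63 TPM (-1.16 ± 0.16, adjusted p = 1.2e-05) and Fosb from 3.37, 2.73 and 2.82 TPM to 0.98, 1.29 and 1.14 TPM (-0.89 ± 0.16, adjusted p = 0.00014). These 2 fell toward their level in untreated wild-type cultures. Btg2 fell from 68.6, 63.1 and 69.2 TPM to 37.7, 31.8 and 34.9 TPM (-0.93 ± 0.08, adjusted p = 4.2e-08), and Dusp1 from 166, 162 and 176 TPM to 92.8, 113 and 108 TPM (-0.68 ± 0.13). Fosl2 was at 34.7, 32.4 and 30.2 TPM (-0.70 ± 0.09), Klf4 at 14.2, 15.7 and 15.9 TPM (-0.62 ± 0.13), Klf2 at 11.3, 13.4 and 12.7 TPM (-0.54 ± 0.12) and Jun at 59.8, 64.6 and 64.6 TPM (-0.28 ± 0.06), all below untreated knockout cultures. Junb was not called, at 239.6, 155 and 144.8 TPM (-0.11 ± 0.14, adjusted p = 0.56).

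The genotypes differed in the response to oleic acid for 30 members: the interaction was lower in the knockout for 26, where 15.8% of all genes were, and higher for 4 (Bdnf, Dusp6, Rgs2 and Nptx2), where 13.8% were. It was -6.46 ± 0.21, adjusted p = 3e-15 for Nr4a1, -3.72 ± 0.22, adjusted p = 2.4e-11 for Fosb and -3.39 ± 0.20, adjusted p = 2.1e-11 for Junb. It was -2.99 ± 0.21 for Egr3, -2.93 ± 0.23 for Arc, -1.68 ± 0.12 for Dusp5, -1.69 ± 0.15 for Klf10, -1.33 ± 0.08 for Gadd45g, -1.23 ± 0.14 for Gadd45b, -0.95 ± 0.09 for Jun, -2.39 ± 0.28 for Ier2 and -1.09 ± 0.13 for Fosl2. In 13 members the change was called upward in wild type and downward in the knockout, where 1.59% of all genes had such a pair of calls: Fos, Fosb, Fosl1, Fosl2, Jun, Egr1, Egr2, Egr3, Egr4, Arc, Nr4a1, Dusp5 and Klf4. The levels at which the genotypes ended differed among them. Egr1 was at 103, 112 and 116 TPM in wild-type and 93.4, 109 and 109.7 TPM in knockout cultures with oleic acid, so the ranges overlapped after starting apart. Nr4a1 did not meet, at 81.0 to 97.7 TPM in wild type and 9.41 to 14.1 TPM in the knockout. Fosb did not meet either, at 7.76 to 14.2 TPM and 0.98 to 1.29 TPM.

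In the knockout palmitic acid raised 6 of 8 AP-1 and Maf factors, and the counts in this comparison depend on the scaling. Of all genes 55.4% were called lower and 19.9% higher, with a median of -0.47, and 12057 to 12915 genes reached 1 TPM in these libraries against 14422 to 14488 in untreated knockout cultures. Against this 17 members were called higher and 10 lower by limma, with a median of 0.40. Median-ratio scaling, which brought the median of all genes to -0.10, called 24 higher and 6 lower, where 35.0% and 39.8% of all genes were. The 6 were Npas4, Nptx2, Gadd45g, Homer1, Egr2 and Egr3, and the members lower only without it were Fos, Arc, Klf2 and Rgs2, of which Klf2 (0.07, adjusted p = 0.66) and Rgs2 (0.11, adjusted p = 0.4) lay above 0 with it.

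Gadd45g fell from 144, 138 and 141 TPM to 48.4, 55.7 and 49.3 TPM (-1.45 ± 0.06, adjusted p = 1.6e-15). Npas4 fell from 6.36, 5.12 and 6.37 TPM to 0.19, 0.27 and 0.19 TPM (-2.51 ± 0.13, adjusted p = 1.5e-13), and Nptx2 from 1.49, 1.36 and 1.52 TPM to 0.07, 0.13 and 0.07 TPM (-1.17 ± 0.12, adjusted p = 1.4e-08). These falls kept their direction and call under either scaling. Nr4a1 rose further, from 50.2, 46.0 and 49.8 TPM to 165, 193 and 189 TPM (1.88 ± 0.15, adjusted p = 3.5e-10). Klf4 rose from 23.9, 24.6 and 23.4 TPM to 79.2, 113 and 103 TPM (1.97 ± 0.13, adjusted p = 7e-12). Both were thus raised above an already high level. Jund rose from 135, 146 and 140.4 TPM to 410.4, 317 and 361 TPM (1.35 ± 0.09, adjusted p = 1.4e-11), and Maff from 78.5, 78.3 and 76.6 TPM to 166, 148 and 146 TPM (0.97 ± 0.07, adjusted p = 8.3e-11). Ier3 rose from 57.4, 57.5 and 57.6 TPM to 270.5, 268 and 272 TPM (2.21 ± 0.18, adjusted p = 4.5e-10), and Fosl1 from 18.8, 17.6 and 19.5 TPM to 113, 109 and 129 TPM (2.58 ± 0.30, adjusted p = 1.1e-07). Nr4a1 and Ier3 reached their highest levels of any astrocyte group here. Jun rose to 113, 141 and 131 TPM (0.73 ± 0.06), Fosb to 10.04, 10.9 and 12.4 TPM (1.61 ± 0.16) and Btg2 to 95.6, 118 and 113 TPM (0.69 ± 0.08). Fos, Egr2 and Arc were lower than in untreated knockout cultures, at 27.7, 39.4 and 35.3, at 3.96, 6.67 and 7.28 and at 2.97, 3.33 and 3.47 TPM.

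The genotype by palmitic acid interaction was called for 28 members, lower in the knockout for 26, where 43.2% of all genes were, and higher for 2 (Jund and Nr4a3), where 14.3% were. Nr4a3 was not called there without the filter or, in turn, without 9 of the 12 libraries, and Jund was called each time. In 7 members (Fos, Egr2, Egr3, Arc, Klf2, Nptx2 and Gadd45g) the change was called upward in wild type and downward in the knockout, where 6.58% of all genes had such a pair of calls. Median-ratio scaling, under which the median of all genes went from -0.35 to 0.01, left 22 called, 19 lower and 3 higher, where 26.9% and 28.5% of all genes were. Gadd45g led with -2.77 ± 0.08, adjusted p = 9.4e-17, having risen in wild type and fallen in the knockout. Dusp5 had -2.37 ± 0.12, adjusted p = 9.6e-13 and Gadd45b -2.39 ± 0.14, adjusted p = 7.6e-12. Klf10 had -2.45 ± 0.15, Fosl2 -1.97 ± 0.13, Npas4 -2.24 ± 0.18, Fosb -2.69 ± 0.22, Jun -1.08 ± 0.09, Nptx2 -1.93 ± 0.17, Egr3 -2.28 ± 0.21, Arc -2.49 ± 0.23 and Junb -1.79 ± 0.20. All 12 of these kept their sign and call with median-ratio scaling. Between the acids in the knockout 25 members were lower with oleic acid, where 16.0% of all genes were, and 5 higher, where 53.7% were, by limma. Nr4a1 led (-3.82 ± 0.15, adjusted p = 2e-15), with Klf4 (-2.60 ± 0.13), Btg2 (-1.61 ± 0.08), Fosb (-2.50 ± 0.16), Jun (-1.01 ± 0.06), Jund (-1.09 ± 0.09), Maff (-0.85 ± 0.07), Fosl1 (-3.34 ± 0.30), Dusp1 (-1.32 ± 0.13), Ier3 (-1.85 ± 0.18) and Dusp5 (-0.88 ± 0.09) also lower with oleic acid. Gadd45g (1.41 ± 0.06), Nptx2, Npas4, Gadd45b and Klf10 were higher, of which Gadd45b and Klf10 turned below 0 with median-ratio scaling (-0.12, adjusted p = 0.4, and -0.15, adjusted p = 0.091). With that scaling 27 members were called lower and 3 higher, where 32.0% and 33.5% of all genes were.

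**Figure D3:**
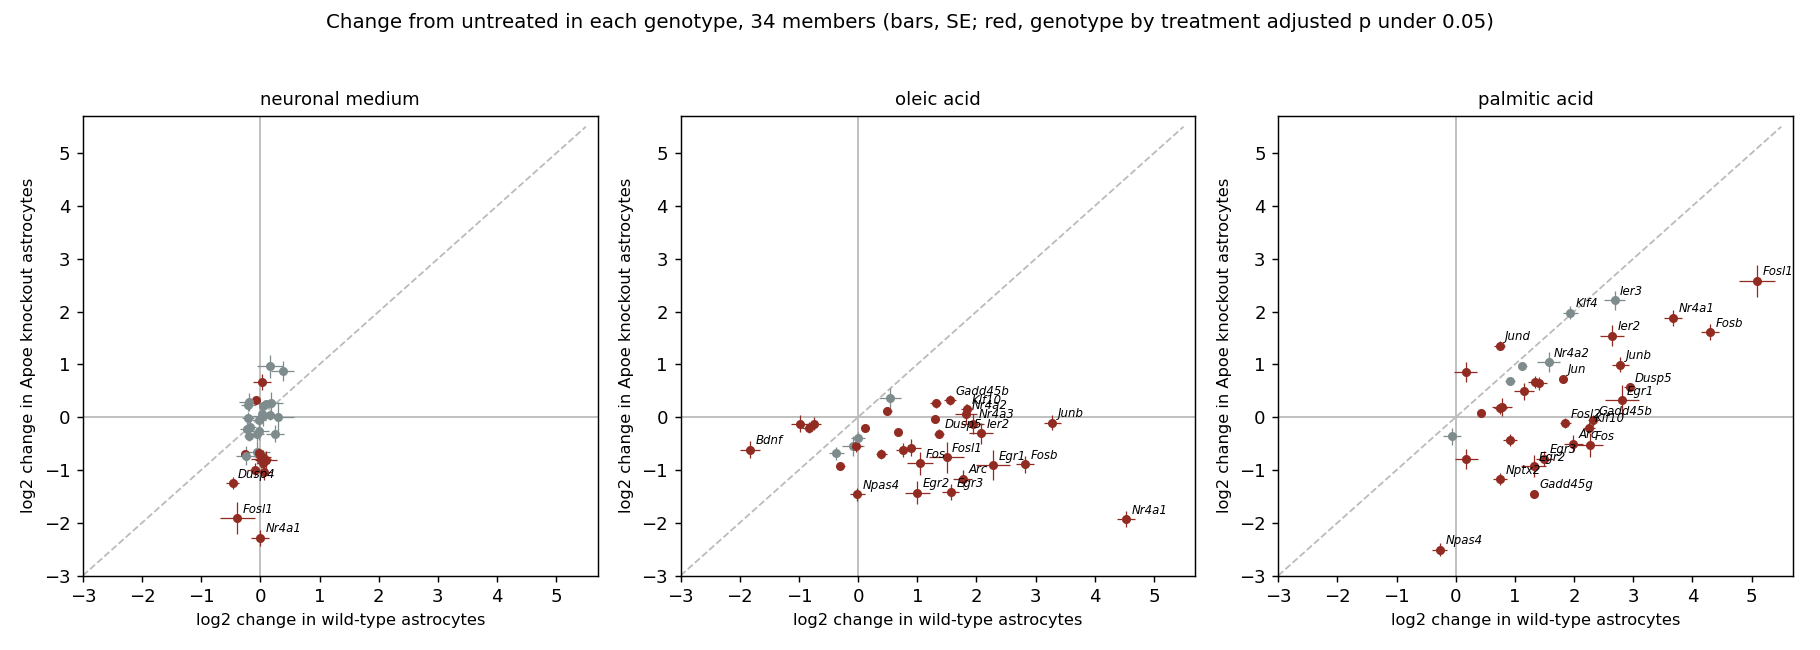
Log2 change from untreated in wild-type (x axis) and Apoe knockout astrocytes (y axis) for the 34 members (points; bars, SE) with neuronal medium, oleic acid and palmitic acid, the dashed line marking equal change. Members whose genotype by treatment interaction was called are red: 13 with medium, 30 with oleic acid, most of them below the line at the lower right, and 28 with palmitic acid. Of all genes, 6.95% were called lower and 11.6% higher in the knockout with medium, 15.8% and 13.8% with oleic acid and 43.2% and 14.3% with palmitic acid.

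The knockout cultures with palmitic acid stood apart in other ways. Gfap was at 2.08, 2.44 and 2.56 TPM and Aqp4 at 2.17 to 4.16 TPM, astrocyte markers summed to 45.7 to 58.1 TPM against 449.9 to 464 TPM in untreated knockout cultures, and mitochondrial transcripts were 1.51% to 2.94% of TPM against 6.41% to 6.64%. Ddx3y was at 1.86, 15.7 and 9.91 TPM there, 15.2, 14.2 and 14.8 TPM with oleic acid, 22.9, 24.3 and 31.0 TPM with medium and 33.5, 32.0 and 31.3 TPM untreated. Microglial markers summed to 29.2 to 40.3 TPM with palmitic acid, 983 to 1104 TPM with oleic acid, 197 to 208 TPM with medium and 315 to 349.7 TPM untreated. Their part in the result was not tested.

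Among the 55 other genes of the pathway tested in the knockout, 22 were lower and 5 higher with medium. Of all genes 12.6% and 18.7% were. With oleic acid 21 were lower and 8 higher, where 20.1% and 21.7% of all genes were. With palmitic acid 25 were lower and 23 higher, where 55.4% and 19.9% of all genes were. The palmitic acid counts are those without median-ratio scaling, on which the counts of members depended. The late-response gene Vgf, a secreted neuropeptide precursor, rose with oleic acid in the knockout (1.04 ± 0.08, adjusted p = 1.3e-08 by limma) and fell with palmitic acid (-2.03 ± 0.08, adjusted p = 2.3e-15 by limma). Sgk1 fell with oleic acid (-1.01 ± 0.09, adjusted p = 4.9e-08 by limma), and Atf3 was at 205 ± 3.39 against 9.41 ± 1.68 TPM, with palmitic acid and untreated (mean ± SD, n = 3; 4.32 ± 0.13, adjusted p = 2.1e-17 by limma).

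**Figure D4:**
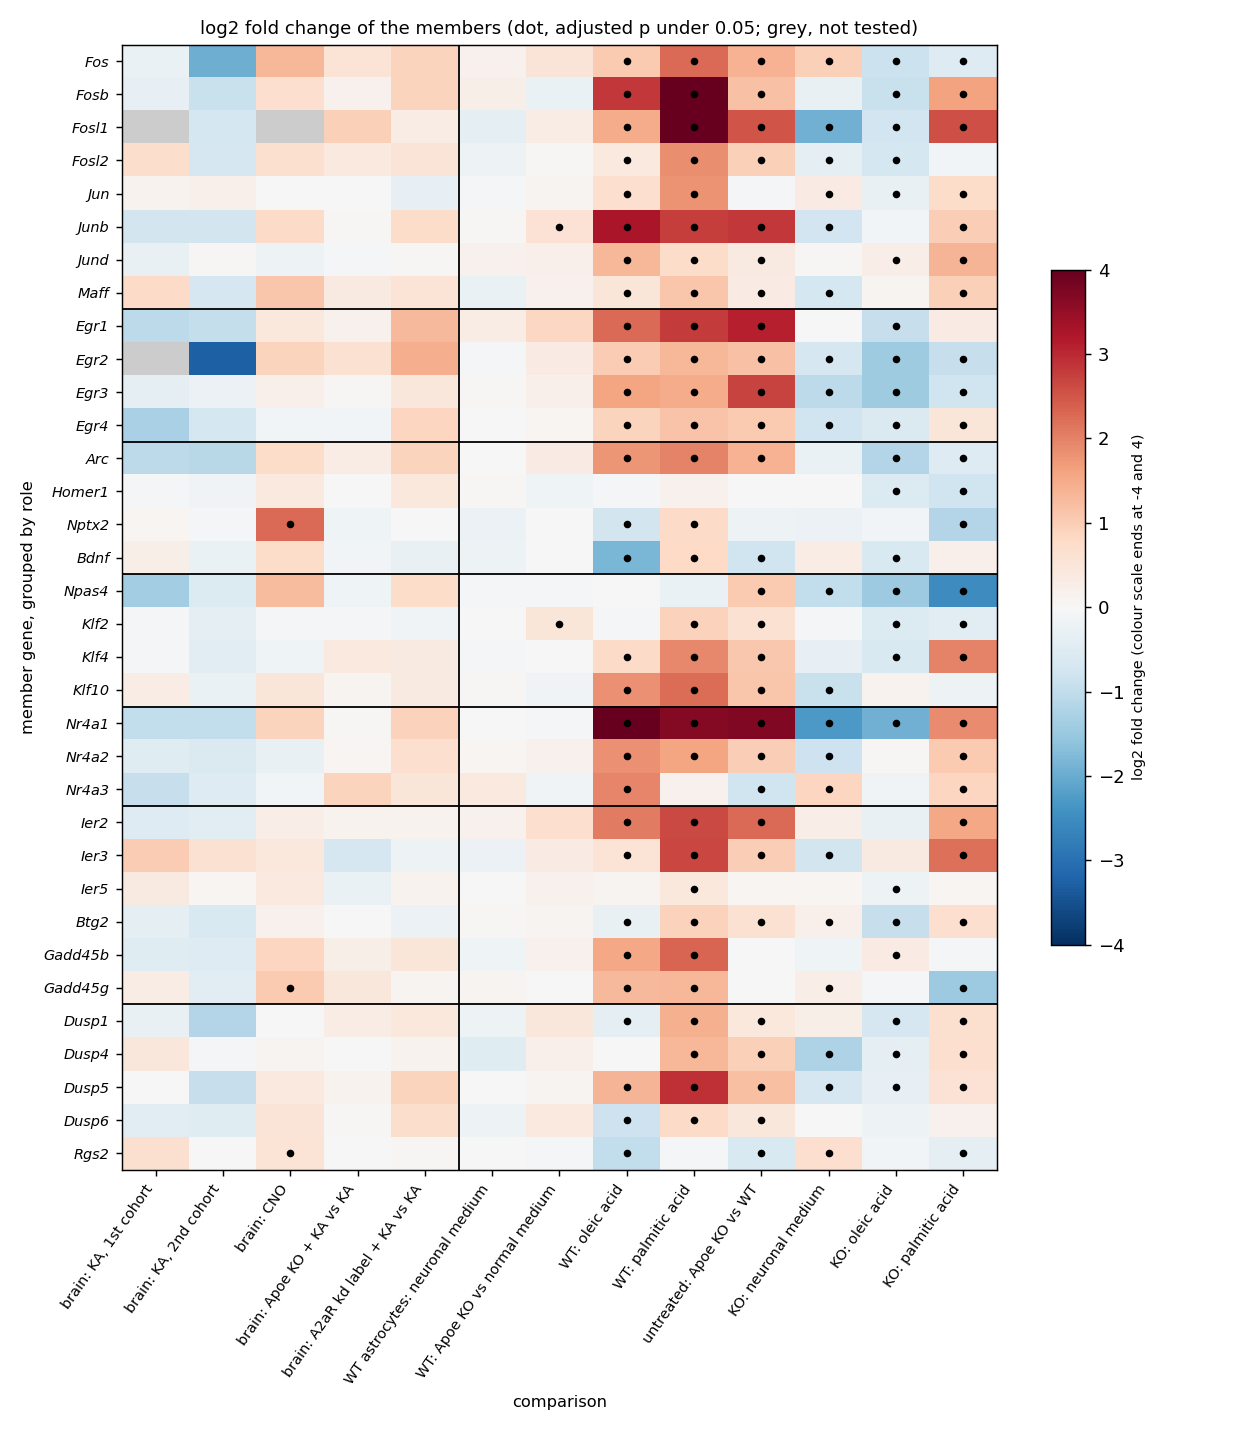
Log2 fold change (colour) of the 34 members (rows, grouped by role) in 13 comparisons (columns), with a dot where the adjusted p was under 0.05 and grey where the gene was not tested. Dots are few in brain, where 3 stand in the CNO column, and fill the fatty acid columns of wild-type astrocytes, with 29 for oleic and 30 for palmitic acid. Of all genes, 3.46% were called higher and 0.233% lower with CNO, 31.2% and 28.6% with oleic acid and 26.8% and 33.1% with palmitic acid.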

How the data were processed

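RNA was sequenced from 27 astrocyte and 25 brain libraries with a TruSeq kit, per the labels' protocols, and HISAT2, StringTie, RSEM and mm10 are named, without roles or versions, per the submitters' processing notes. For astrocytes, CNO brain and the first KA cohort the deposited values are TPM, as their sums of 978422 to 995304 show. Whole-number counts were deposited beside TPM in the second KA cohort. No test crosses the 4 tables.

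TPM went into limma 3.58.1 in R 4.3.3 as log2(TPM + 1), its trend option on, after genes that did not reach 1 TPM in 3 libraries had been dropped, and counts into edgeR 4.0.16 (quasi-likelihood, TMM, its filter on low counts), and all groups of the astrocytes and of the second cohort shared a fit. SEs of edgeR fold changes were taken from its F statistic. Interactions compare a treatment's change between genotypes. The scripts were tested on simulated data. In the CNO set same-numbered libraries deviated together (correlations of deviations 0.119 to 0.244, 3 of 3 best with their own number). The labels name no shared animal. With so few libraries and many comparisons checked, such a match can arise by chance, so the block is only an alternative fit. Alternatives were a pseudocount of 0.1, no filter, median-ratio or DESeq2 1.42.0 scaling, the DESeq2 Wald test, a replicate block, only the groups compared, and leaving out each library. Coordinates and overlaps are from GENCODE M21 on mm10.

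The members, the 59 other genes of the pathway and the marker lists were chosen with earlier results of these data known. Library values and tests were given for members past the threshold, at most the 12 with the smallest p per comparison, or the 4 with the smallest p where fewer than 4 passed, with 8 members always given in brain, and other members named in the text were chosen after their values were seen.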

Additional observations from a re-analysis of the deposited data

Results flagged for a closer look

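In the KA group of the second cohort, Egr1 in KA 4 was at 69.4 TPM, far from the other 3 libraries (29.1 to 69.4 TPM over all 4). KA 4 also had the highest Gfap and the highest share of mitochondrial transcripts of the 4, and the part of this was not tested. For the level of a gene, chance alone marks about 1 in 20 groups as Egr1 was marked here.

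The response to treatment differed between genotypes in astrocytes, by the interaction test in limma, for 13 members with neuronal medium, 30 with oleic acid and 28 with palmitic acid. Of all genes, 6.95% were called lower and 11.6% higher in the knockout with medium, 15.8% and 13.8% with oleic acid and 43.2% and 14.3% with palmitic acid. The palmitic acid count was smaller with median-ratio scaling. These interactions share the untreated libraries of both genotypes. With oleic acid the members that rose in wild type and fell in the knockout had log2 interactions of -1.92 (Fos), -3.72 (Fosb), -2.26 (Fosl1), -1.09 (Fosl2), -0.95 (Jun), -3.19 (Egr1), -2.43 (Egr2), -2.99 (Egr3), -1.48 (Egr4), -2.93 (Arc), -6.46 (Nr4a1), -1.68 (Dusp5) and -1.38 (Klf4). With palmitic acid they were -2.79 (Fos), -2.24 (Egr2), -2.28 (Egr3), -2.49 (Arc), -1.35 (Klf2), -1.93 (Nptx2) and -2.77 (Gadd45g), where the falls of Fos, Arc and Klf2 in the knockout were not called with median-ratio scaling.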

How the results depend on the processing

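Of 18 counts of called members, 13 stayed within 1.5 times under every alternative run, and of 3825 alternative values of 308 single-gene results 3649 kept their direction and side of the threshold. In the first KA cohort median-ratio scaling called 1 member and leaving out each library 0 to 9. In CNO 1 was called without the filter on low values, 9 with the replicate block and 1 to 8 without each library. In the second KA cohort the DESeq2 Wald test called 6 and the replicate block 1 (Egr1). In the libraries labelled A2aR knock down the Wald test called 4. For APOE KO against normal neuronal medium 0 were called with a pseudocount of 0.1, no filter, median-ratio scaling, the replicate block or only the groups compared, and 0 to 7 without each library. The cause of these moves was not tested. Median-ratio scaling turned the sign of Klf2 (0.069) and Rgs2 (0.11) with palmitic acid in the knockout, of Ier5 in the palmitic acid interaction (0.11), and of Klf10 (-0.15) and Gadd45b (-0.12) between the acids in the knockout. Outside CNO, same-numbered libraries were not paired by these checks and share only a number, and the block moved no other count by over 1.5 times. No paired analysis was possible for the libraries labelled A2aR knock down because they share only 1 number with KA. The depth behind the TPM tables is unknown.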
